A study of Mus musculus with 12 samples.

Results

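The genes described here encode 9 C-type lectin receptors of myeloid cells, namely Clec4d, Clec4e, Clec4n, Clec4a2, Clec5a, Clec7a, Clec10a, Clec12a and Mrc1. They were chosen by name, and every probe set that carried 1 of these symbols alone in the platform annotation was taken. This gave 11 of the 34945 probe sets with a single gene symbol, for 8 of the 9 genes. Clec12a had no probe set of its own in the table used and was not analysed here. Testing required a signal above 70.5, which is the overall median, in 3 or more arrays. Of the 11 probe sets 10 met this, among 21363 in the whole series. The other was a second Clec4a2 probe set (1425406_at), which lay between 2.97 and 57.7 on every array. A further probe set that names Clec4a2 together with Clec4b1 was left out.

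The study compared cells of mice without or with Stat5a and Stat5b in blood cells, the paired transcription factor genes that act downstream of the receptor for the cytokine GM-CSF, under treated and untreated conditions. The 4 groups were knockout treated, knockout untreated, control treated and control untreated, with 3 Affymetrix Mouse430_2 arrays each, and the arrays of every group were run on 3 dates. The treatment field of the labels reads with or without "GMP", and the letters also stand in titles of untreated arrays, so only the word treatment is used. The labels state neither the kind of cell, the age or strain of the mice, the means of deletion, nor whether a sample stands for its own animal. The p-values therefore describe only how these samples scatter, which may be technical. In such bulk samples, fewer cells of a type and less RNA per cell cannot be told apart.

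C-type lectin receptors are surface proteins with which macrophages, neutrophils and dendritic cells sense sugars and lipids of fungi, mycobacteria and damaged cells. Some members (Clec4d, Clec4e and Clec4n) signal through the adaptor Fcer1g and the kinase Syk to the Card9, Bcl10 and Malt1 complex. Clec7a carries its own activating motif, Clec5a uses the adaptor Tyrobp, and Clec4a2 and Clec12a carry an inhibitory motif. Mrc1 and Clec10a mainly take up glycoproteins.

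The labels and the arrays were checked first. The Stat5a signal was 26.7 to 101 on the 6 knockout arrays, against 375 to 1147 on the 6 control arrays, and that of Stat5b was 1.80 to 60.5 on knockout arrays, against 287 to 1531 on control arrays. The 4 arrays of date 2 stood apart. There the 3' to 5' signal ratio of Actb ranged over 20.8 to 266, against 1.14 to 2.05 on the remaining 8 arrays, and that of Gapdh over 28.2 to 80.7, against 1.56 to 3.90. Results without date 2 are therefore given beside each called change of a lectin receptor gene, and for other named genes where a call was lost or gained. The summed signal of the 11 measured progenitor markers was 83272 to 238332 over the arrays, and each of these genes was above 70.5 on at least 1 array. A sum follows its brightest genes, so this does not show that every marker was bright on every array.

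Clec4d, Clec4e and Clec4n rose with treatment in knockout and in control cells, and each of their 5 probe sets passed the test in both genotypes. In the test, log2(intensity + 13) was fitted in limma with array date as a block, and a call is a Benjamini-Hochberg adjusted p under 0.05 over all 21363 probe sets. In knockout cells 5 of 10 member probe sets were called higher, against 5.77% of all probe sets tested, and 1 was called lower, against 2.89%. In control cells 5 were called higher, against 3.16% of all, and 0 lower, against 1.54%. The median log2 change of the 10 was 1.45 in knockout cells, beside 0.01 over all probe sets, and 1.72 in control cells, beside -0.01. Treated arrays lay above untreated ones without overlap for 4 of 10 in knockout cells, beside 11% of all, and for 6 of 10 in control cells, beside 8.36%. Of all called probe sets 66.6% were higher in knockout and 67.3% in control cells, and after median centring of the arrays 54.7% in knockout and 52.2% in control cells. These counts include more than 1 probe set for Clec4e and for Clec4n, which measure the same transcripts. They describe the probe sets that passed the filter and support nothing further, since 1425951_a_at of Clec4n passed on 4 arrays, all of them treated. Likewise, 1419627_s_at of Clec4n passed on 7 arrays, all of them treated except the knockout untreated array of date 2. With no filter 4 in place of 6 member probe sets were called in knockout cells, 1425951_a_at (adjusted p = 0.0646) and Clec10a (adjusted p = 0.0814) being lost, and 5 in control cells.

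**Figure D1:**
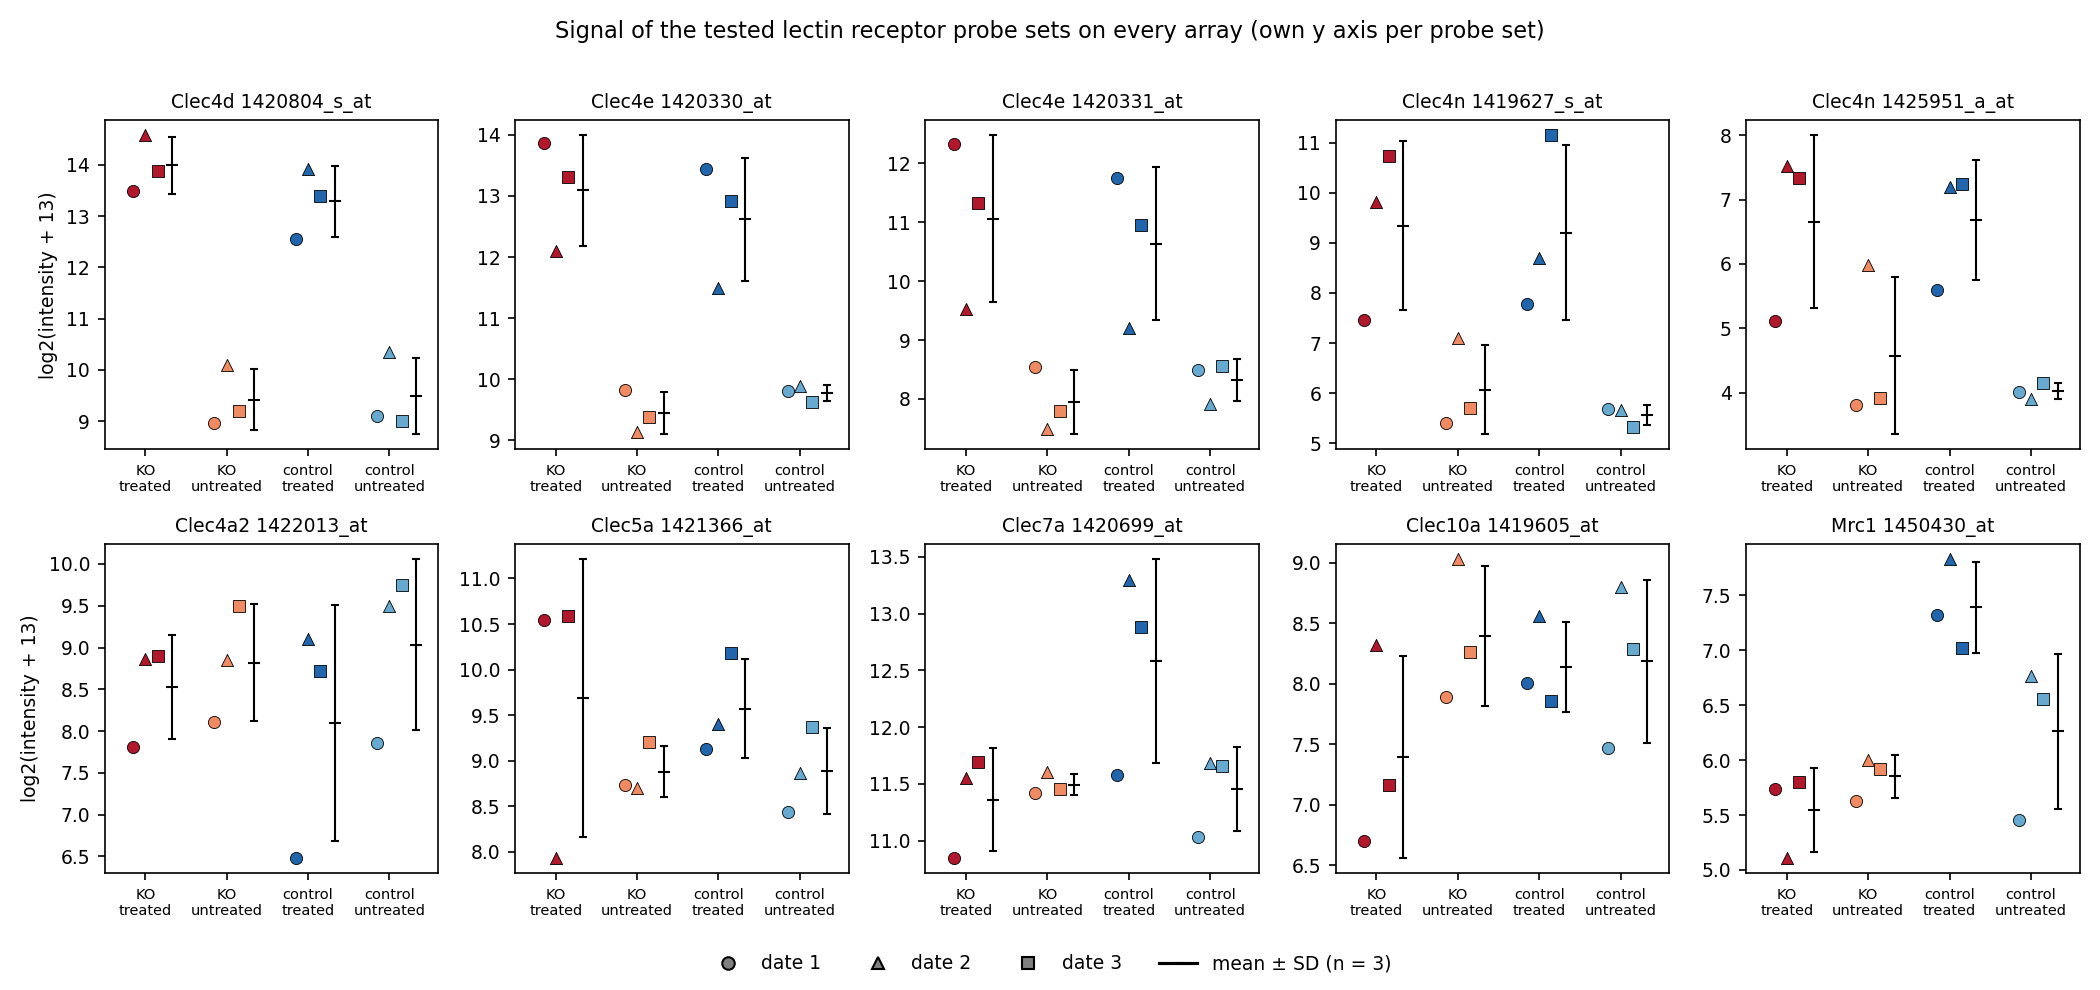
Log2 of the signal plus 13 on each of the 12 arrays for the 10 tested probe sets, with knockout treated, knockout untreated, control treated and control untreated arrays from left to right, symbols for the dates and the mean ± SD of 3 arrays beside them. For Clec4d all treated arrays lie above all untreated arrays, and for Mrc1 the 3 control treated arrays lie above the 3 knockout treated arrays.

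Clec4d encodes a receptor, also called MCL, that pairs with Mincle and binds mycobacterial glycolipid. Its signal was 11553, 24419 and 15084 on dates 1, 2 and 3 in knockout treated cells, against 485, 1087 and 576 in knockout untreated cells. In control treated cells it was 5986, 15500 and 10765, against 540, 1292 and 502 in control untreated cells. No treated array overlapped an untreated one, and the 2 genotypes overlapped under either condition. The signal with treatment was 23.8, 22.5 and 26.2 times that without on the 3 dates in knockout cells, and 11.1, 12 and 21.4 times in control cells. On the log2 scale Clec4d rose by 4.56 ± 0.24 in knockout cells (SE, limma adjusted p = 5.06e-05) and by 3.80 ± 0.24 in control cells (adjusted p = 1.55e-04). Without date 2 the rise was 4.61 in knockout cells (adjusted p = 9.85e-04) and 3.91 in control cells (adjusted p = 0.00118), and both calls held without any 1 of the 12 arrays. The suffix of this probe set marks probes shared by more than 1 transcript, so part of the signal may come from a related transcript.

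Clec4e encodes Mincle, which recognises the mycobacterial cord factor and a nuclear protein released by dead cells. Its brighter probe set (1420330_at) read 14849, 4354 and 10163 on the 3 dates in knockout treated cells, against 893, 548 and 658 in knockout untreated cells. It read 11083, 2882 and 7717 in control treated cells, against 882, 934 and 777 in control untreated cells. Treated arrays lay above untreated ones without overlap, and the treated array of date 2 was the lowest of its group in either genotype. The rise was 3.64 ± 0.37 in knockout cells (adjusted p = 7.71e-04) and 2.84 ± 0.37 in control cells (adjusted p = 0.00324). Without date 2 it was 3.98 in knockout cells (adjusted p = 8.22e-04) and 3.46 in control cells (adjusted p = 8.15e-04). Both calls held without any 1 of the 12 arrays and without the date block, and that in control cells missed the threshold when the control arrays were fitted alone (adjusted p = 0.0593).

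The dimmer Clec4e probe set (1420331_at) lay at 724 to 5092 in knockout treated and 167 to 362 in knockout untreated cells, and at 577 to 3427 in control treated and 227 to 363 in control untreated cells. It rose by 3.11 ± 0.41 in knockout cells (adjusted p = 0.00247) and by 2.32 ± 0.41 in control cells (adjusted p = 0.0128). Without date 2 the change was 3.65 in knockout cells (adjusted p = 0.00192) and 2.83 in control cells (adjusted p = 0.00411). The call in control cells was lost without the control treated or control untreated array of date 1 or 3 (adjusted p of at most 0.0708), and without the date block the adjusted p was 0.0604 in knockout and 0.245 in control cells. With only the control arrays fitted, the control call was also lost (adjusted p = 0.06965).

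Clec4n encodes Dectin-2, a receptor for fungal mannans. Its brighter probe set (1419627_s_at, with shared probes) read 164, 887 and 1690 on the 3 dates in knockout treated cells, against 29.7, 124 and 39.5 in knockout untreated cells. In control treated cells it read 206, 401 and 2255, against 38.6, 38.1 and 27.4 in control untreated cells. Treated and untreated arrays did not overlap, and the date 3 array was the highest treated one in both genotypes. The rise was 3.26 ± 0.73 in knockout cells (adjusted p = 0.0239) and 3.64 ± 0.73 in control cells (adjusted p = 0.0221). Without date 2 the change was 3.53 in knockout cells (adjusted p = 0.0580) and 3.95 in control cells (adjusted p = 0.0506), past the threshold in neither.

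The probe set that stood for Clec4n under the rule used (1425951_a_at) was dim, at 21.6, 172 and 149 in knockout treated and 1.04, 50 and 2.17 in knockout untreated cells. It read 35.6, 133 and 139 in control treated and 3.19, 1.90 and 4.82 in control untreated cells. Most untreated values lay below the added constant of 13, which shrinks its log2 changes, and the size of the change cannot be read from signals this dim. The knockout groups overlapped through the untreated array of date 2. It rose by 2.09 ± 0.52 in knockout cells (adjusted p = 0.0359) and by 2.65 ± 0.52 in control cells (adjusted p = 0.0203). Without date 2 it rose by 2.36 in knockout cells (adjusted p = 0.0399) and by 2.34 in control cells (adjusted p = 0.0471). Both Clec4n calls rested on single arrays. In control cells both were lost without the control treated array of date 1 or 3 or the control untreated array of date 2 or 3 (adjusted p of at most 0.109). In knockout cells both were lost without the knockout treated array of date 2 or 3 or the knockout untreated array of date 1 or 3 (at most 0.151), and that of the dim probe set also without the control treated array of date 1 (0.0519) or the control untreated array of date 3 (0.0561). Without the date block the brighter probe set had an adjusted p of 0.113 in knockout and 0.114 in control cells, and the dim one of 0.230 in knockout and 0.163 in control cells. With only the control arrays fitted, the brighter one was at 0.0822 and the dim one at 0.0555. With only the knockout arrays fitted, the brighter one kept its call (0.0378) and the dim one lost it (0.0595).

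**Figure D2:**
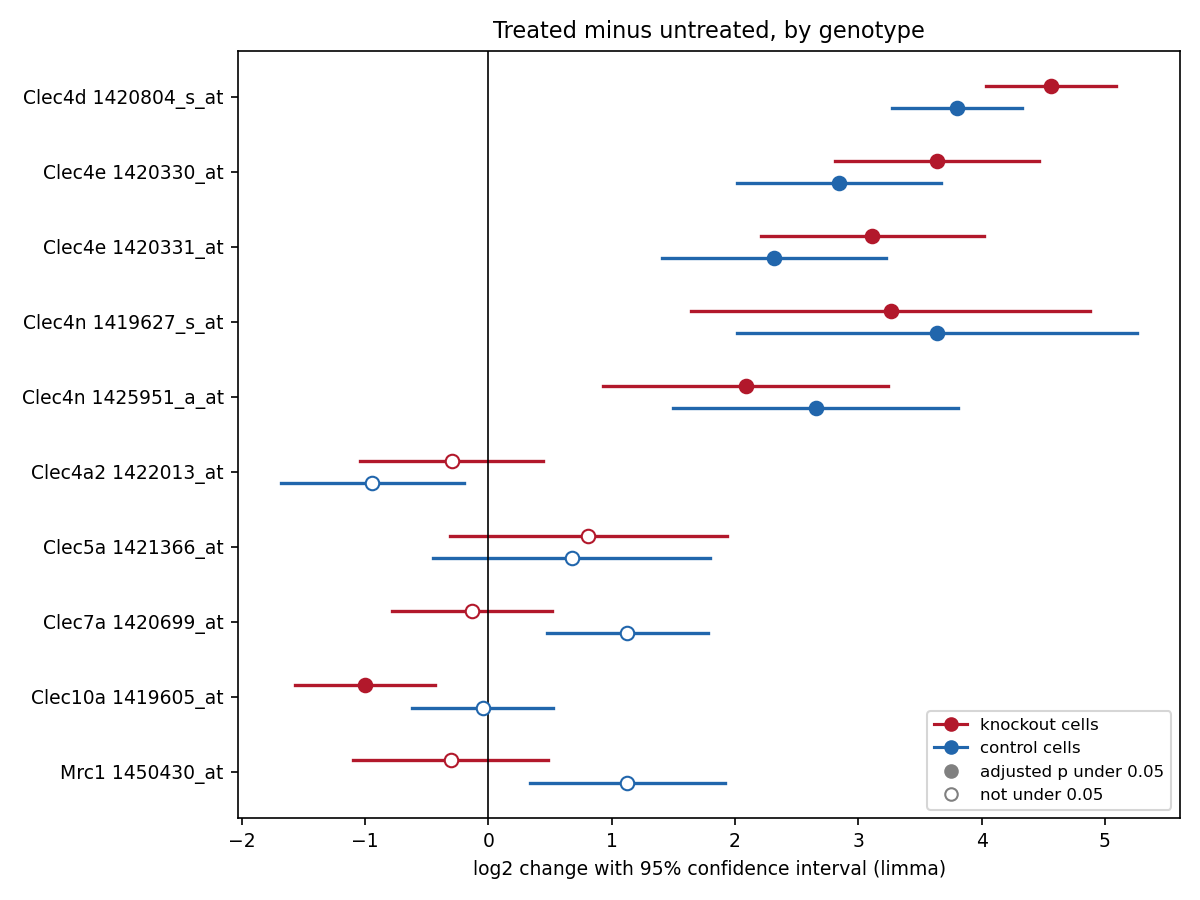
Log2 change with treatment for the 10 tested probe sets, in knockout cells (upper point of each pair) and control cells (lower point), with 95% confidence intervals from limma and filled points for an adjusted p under 0.05. The 5 probe sets of Clec4d, Clec4e and Clec4n lie between 2.09 and 4.56 in both genotypes, and Clec10a is the only 1 of the 10 called lower, at -1.001 in knockout cells.

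Clec4n, Clec4d and Clec4e are direct neighbours, in this order, among the protein-coding genes of mouse chromosome 6 in the RefSeq gene table (GRCm38.p6), and Clec4a2 is separated from Clec4n by Clec4b2. Promoter sequences were taken from RefSeq for the same build and matched 6 of the 8 measured genes, Clec4n and Clec10a not among them. Each was searched, on both strands of the 250 bases before the start, for 5 transcription factor motifs. These were TTCNNNGAA (STAT), TGANTCA (AP-1), TTGCNNAA (C/EBP), GAGGAAG (PU.1) and the NF-kB motif, which 7.02%, 6.75%, 9.56%, 10.6% and 3.90% of 32851 promoters held. The promoters of the neighbours Clec4d and Clec4e are shown because these genes had the 2 largest called rises in knockout cells, that of Clec4a2 because it alone of the 6 held the STAT motif, and that of Clec7a because its level differed most between treated genotypes among members above 70.5 on all 12 arrays. Capitals mark motif matches, none of which overlap, and each sequence runs from 5' to 3' on the strand of the gene.
Clec4d: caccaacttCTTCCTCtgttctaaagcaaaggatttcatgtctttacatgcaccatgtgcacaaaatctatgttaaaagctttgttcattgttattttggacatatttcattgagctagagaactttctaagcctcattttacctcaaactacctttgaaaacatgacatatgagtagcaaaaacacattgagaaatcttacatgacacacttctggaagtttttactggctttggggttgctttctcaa
Clec4e: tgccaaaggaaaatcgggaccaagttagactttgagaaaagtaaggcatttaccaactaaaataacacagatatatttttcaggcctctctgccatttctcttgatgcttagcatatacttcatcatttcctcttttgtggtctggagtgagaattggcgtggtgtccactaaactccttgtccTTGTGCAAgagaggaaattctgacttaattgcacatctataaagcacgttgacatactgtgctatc
Clec4a2: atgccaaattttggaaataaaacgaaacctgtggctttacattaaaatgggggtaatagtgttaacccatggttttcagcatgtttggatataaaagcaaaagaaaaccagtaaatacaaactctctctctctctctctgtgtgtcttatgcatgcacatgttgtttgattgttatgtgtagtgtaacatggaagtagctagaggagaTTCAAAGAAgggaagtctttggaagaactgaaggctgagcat
Clec7a: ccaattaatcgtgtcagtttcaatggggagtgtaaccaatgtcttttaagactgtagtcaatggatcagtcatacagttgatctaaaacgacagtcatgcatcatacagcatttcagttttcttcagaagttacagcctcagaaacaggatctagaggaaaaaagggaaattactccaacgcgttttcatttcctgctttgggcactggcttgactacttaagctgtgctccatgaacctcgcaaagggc
Clec4d (chr6:123261857-123262106, plus strand) held 1 match, to PU.1, and Clec4e (chr6:123289872-123290121, minus strand) held 1, to C/EBP. Clec4a2 (chr6:123122440-123122689, plus strand) held 1 match to STAT, from 42 to 34 bases before the start, and no motif was matched in the window of Clec7a (chr6:129472780-129473029, minus strand). Clec4d and Clec4e thus shared none of the 5 motifs in these windows.

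Clec7a and Mrc1 were higher in control treated than in knockout treated cells on every date, by margins that missed the adjusted threshold. Clec7a encodes Dectin-1, the receptor for fungal beta-glucan. Its signal was 1826, 2991 and 3288 on the 3 dates in knockout treated cells, against 3041, 10047 and 7515 in control treated cells. In knockout untreated cells it was 2731, 3097 and 2798, against 2081, 3277 and 3211 in control untreated cells. The control treated arrays of dates 2 and 3 were the highest of the 12, and the knockout treated, knockout untreated and control untreated groups overlapped. Knockout minus control was -1.22 ± 0.29 with treatment (limma adjusted p = 0.370) and 0.04 ± 0.29 without it (adjusted p = 1.0). The change with treatment was -0.13 ± 0.29 in knockout cells (adjusted p = 0.827) and 1.13 ± 0.29 in control cells (adjusted p = 0.0580). The control value passed the threshold when 1 probe set per gene was fitted (adjusted p = 0.0471) or without the control treated array of date 1 (0.0379). It also passed with a constant of 50 (0.0341) and with the stricter filter (0.0485). It missed the threshold without date 2 (0.88, adjusted p = 0.135). Over all alternatives its adjusted p lay between 0.0341 and 0.393.

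Mrc1 encodes the macrophage mannose receptor, CD206. Its signal was 40.3, 21.4 and 42.7 in knockout treated cells, against 147, 215 and 117 in control treated cells, with no overlap. In knockout untreated cells it was 36.6, 51.0 and 47.6, against 31.0, 95.9 and 81.3 in control untreated cells, where the groups overlapped. With treatment, knockout minus control was -1.84 ± 0.36 (adjusted p = 0.190; -1.40 and 0.537 without date 2), and without treatment it was -0.41 ± 0.36 (adjusted p = 1.0). The change with treatment was -0.30 ± 0.36 in knockout cells (adjusted p = 0.653) and 1.13 ± 0.36 in control cells (adjusted p = 0.102), where all treated arrays lay above all untreated ones. Only 5 arrays exceeded 70.5, and all 6 knockout arrays lay below it.

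Clec10a, which encodes a galactose-type lectin, fell with treatment in knockout cells. Its signal was 90.9, 307 and 130 on the 3 dates in knockout treated cells, against 224, 510 and 295 in knockout untreated cells, lower on each date though the groups overlapped. In control treated cells it was 244, 364 and 218, against 164, 433 and 299 in control untreated cells. It fell by 1.001 ± 0.26 in knockout cells (adjusted p = 0.0390), and by 1.15 without date 2 (adjusted p = 0.0438). In control cells it changed by -0.05 ± 0.26 (adjusted p = 0.943). The knockout call held in 3 of the 12 fits without 1 array. It was lost without the knockout treated array of date 1 or 3, any knockout untreated or control untreated array, or the control treated array of date 3 (adjusted p of at most 0.133). It was also lost without the date block (0.456), with no filter (0.0814) and with only the knockout arrays fitted (0.0751). Knockout minus control with treatment was -0.75 ± 0.26 (adjusted p = 0.584).

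Clec4a2 and Clec5a were not called in any comparison. Clec4a2, also called DCIR, read 210, 453 and 465 in knockout treated and 263, 448 and 711 in knockout untreated cells, and 76.0, 536 and 407 in control treated and 219, 712 and 844 in control untreated cells. All 4 groups overlapped, with the date 1 array the lowest of each. Its change with treatment was -0.30 ± 0.33 in knockout cells (95% interval -1.04 to 0.44) and -0.94 ± 0.33 in control cells (-1.68 to -0.20, adjusted p = 0.140), where it was lower on each date. Clec5a, also called MDL-1, read 1482, 231 and 1531 in knockout treated and 413, 402 and 576 in knockout untreated cells. It read 547, 663 and 1145 in control treated and 333, 453 and 650 in control untreated cells. The knockout treated array of date 2 was the lowest of all 12 and those of dates 1 and 3 the highest. The change was 0.81 ± 0.51 in knockout (adjusted p = 0.357) and 0.68 ± 0.51 in control cells (adjusted p = 0.492). Without date 2 the knockout value was 1.599 and passed the threshold (adjusted p = 0.0220), as it did without the knockout treated array of date 2 alone (1.63, adjusted p = 0.0187), and over all alternatives its adjusted p lay between 0.0187 and 0.834.

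Whether the response differed with genotype was tested as the knockout response minus the control response. None of the 10 probe sets was called in this limma test, as was none of all 21363 (0%), and at an unadjusted p under 0.05 there were 4 of the 10, beside 2.57% of all. These were Clec4d, at 0.76 ± 0.34 (95% interval 0.02 to 1.51), Clec7a, at -1.26 ± 0.42 (-2.18 to -0.34), Clec10a, at -0.96 ± 0.36 (-1.76 to -0.15), and Mrc1, at -1.43 ± 0.50 (-2.55 to -0.31). Each of these had the same sign on all 3 dates, and the adjusted p was 1.0 for each. Since Mrc1 passed the filter on control arrays only, the count of 4 describes the probe sets that passed and supports nothing further. For Clec4e the interval was -0.38 to 1.97 (1420330_at) and for Clec4n -2.20 to 1.07 (1425951_a_at), so differences of that size between the genotypes were not resolved. No member was called under any alternative setting, the lowest adjusted p being 0.923.

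Knockout and control cells were also compared at each condition. With treatment 0 of 10 member probe sets were called in limma, beside 0.0609% of all, and 4 of 10 had an unadjusted p under 0.05, beside 8.46% of all. These 4 were again Clec4d (0.70 ± 0.24, adjusted p = 0.584), Clec7a, Clec10a and Mrc1. The comparison shares its treated arrays with the test of the responses and is no independent support for it. In 1 of 10, Mrc1, the groups did not overlap with knockout lower, beside 3.69% of all probe sets. Mrc1 passed the filter on 5 arrays, all of them control. The counts with treatment therefore describe the probe sets that passed and support nothing further. Without treatment 0 of 10 were called, beside 0.00936% of all, 0 of 10 had an unadjusted p under 0.05, beside 2.43%, and the differences lay between -0.41 (Mrc1) and 0.55 (Clec4n, 1425951_a_at).

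**Figure D3:**
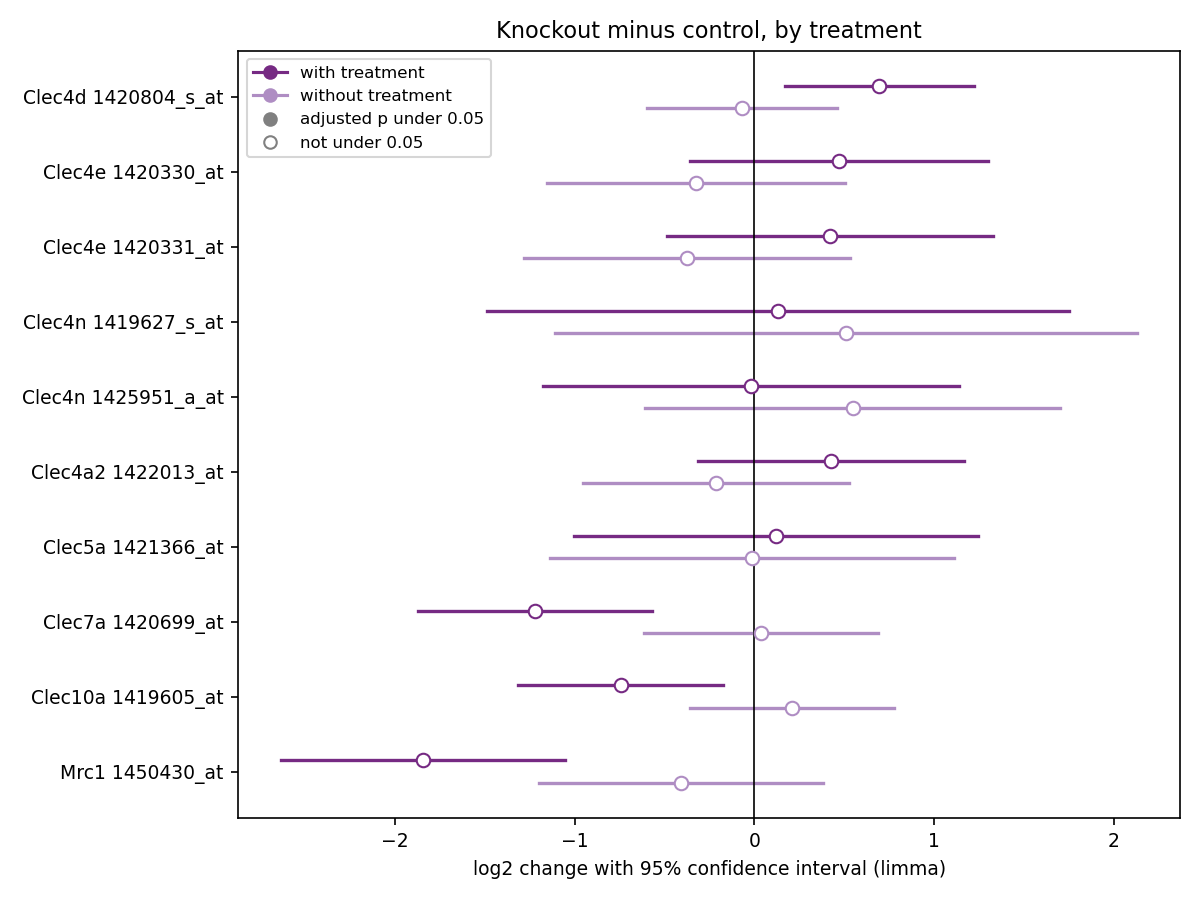
Knockout minus control on the log2 scale for the 10 tested probe sets, with treatment (upper point of each pair) and without (lower point), with 95% confidence intervals from limma. No point is filled because none had an adjusted p under 0.05, and the intervals of Clec4d, Clec7a, Clec10a and Mrc1 with treatment do not include 0.

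The order of the group means summarised these patterns. For Clec4d it was knockout treated (17019 ± 6648, SD, n = 3), control treated (10750 ± 4757), control untreated (778 ± 445) and knockout untreated (716 ± 325). For Clec4e (1420330_at) the order was the same, with knockout treated at 9789 ± 5257, control treated at 7227 ± 4122, control untreated at 864 ± 80.1 and knockout untreated at 700 ± 177. For both genes only the step between control treated and control untreated separated the arrays without overlap. Clec7a had 6868 ± 3548 in control treated cells, and its other groups had means between 2702 ± 773 (knockout treated) and 2875 ± 195 (knockout untreated), with the arrays of each neighbouring pair in this order overlapping. Mrc1 was highest in control treated cells (159 ± 50.2), followed by control untreated (69.4 ± 34.05), knockout untreated (45.1 ± 7.53) and knockout treated cells (34.8 ± 11.6), and only the first step separated the arrays without overlap.

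Across the 12 arrays, with the mean of each date removed, the log2 values of Clec4d and Clec4e had a Pearson correlation of 0.98, Clec4d and Clec4n of 0.89, and Clec4e and Clec4n of 0.83. Clec7a correlated most with Mrc1 among the members (0.77) and less with Clec4d (0.36). Clec10a ran against Clec4d (-0.71) and Clec4a2 against Clec4n (-0.73). These correlations describe arrays that share groups, dates and scaling.

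**Figure D4:**
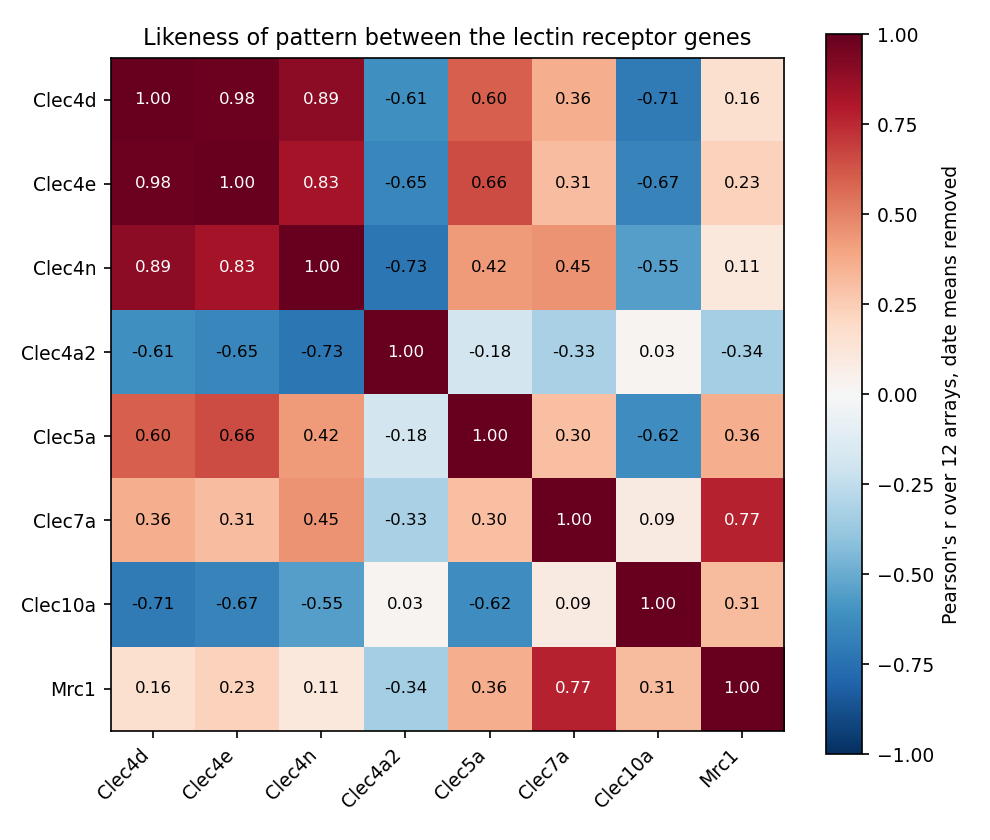
Pearson correlation between the log2 values of the 8 measured genes over the 12 arrays after the mean of each date was removed, 1 probe set per gene, with red for positive and blue for negative values. Clec4d, Clec4e and Clec4n form one block of values from 0.83 to 0.98, and Clec7a and Mrc1 stand at 0.77.

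By the same measure over 11815 genes, the 3 most like Clec4d were Rab20 (0.99), Dusp3 (0.99) and Cdyl2 (0.99), and the 3 most like Clec4e were Mdfic, Maff and the cystine transporter gene Slc7a11 (0.99 or above). Maff differed with treatment by 4.001 in knockout and 3.12 in control cells on the log2 scale. The genes most like Clec7a were the growth factor gene Hbegf (0.97), the actin regulator gene Enah (0.94) and Get4 (0.94). Hbegf differed with treatment by -0.42 in knockout and 2.36 in control cells, and Enah by -0.21 in knockout and 2.67 in control cells. Those most like Mrc1 were Kpna1 (0.95), Mpp3 (0.94) and Stx7 (0.94), and those most like Clec10a were the mucin gene Muc13 (0.95), Cfap410 (0.93; shared probes) and Armcx4 (0.92). For Clec4n they were C77080 (0.99), Lhfpl2 (0.97) and Ccdc130 (0.97), for Clec4a2 Oma1 (0.94), Saal1 (0.91) and the adaptor gene Dok3 (0.91), and for Clec5a Tatdn2 (0.94), Olfml2b (0.92) and Gm41724 (0.90).

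The adaptors and signalling proteins downstream of these receptors mostly had no call. Of 23 tested genes on a list of 29, 3 rose and 0 fell in knockout cells, beside 5.79% of all genes called higher and 3.44% lower. In control cells 2 rose and 0 fell, beside 3.33% of all genes called higher and 1.81% lower. Their median change was 0.21 in knockout cells, beside -0.02 over all genes, and -0.05 in control cells, beside -0.04. Lcp2, which encodes the adaptor SLP-76, rose by 2.26 ± 0.31 in knockout cells (adjusted p = 0.00281) and by 2.10 ± 0.31 in control cells (adjusted p = 0.00592). Its signal was 3525 in knockout treated against 656 in knockout untreated cells, and 3272 in control treated against 704 in control untreated cells, as group means. Malt1, the protease of the Card9 complex, rose by 1.77 ± 0.39 in knockout (adjusted p = 0.0223) and by 2.37 ± 0.39 in control cells (adjusted p = 0.00956). Irf5, an interferon regulatory factor gene, rose in knockout cells by 2.06 ± 0.43 (adjusted p = 0.0178). Its change in control cells was 1.63 ± 0.43 (adjusted p = 0.0583), and it was called there without date 2 (2.16, adjusted p = 0.00488). None of the 23 was called between the genotypes or for the difference between responses.

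Of 59 other C-type lectin and lectin-like genes 24 were tested. In knockout cells 1 rose and 2 fell, beside 5.79% of all genes called higher and 3.44% lower, with a median of 0.03. In control cells 1 rose and 0 fell, beside 3.33% called higher and 1.81% lower, with a median of -0.09. With so few calls, the genes named next are descriptions only. Clec2i rose by 2.18 ± 0.35 in knockout cells (adjusted p = 0.00594), to 235 with treatment against 42.1 without. Its change in control cells was 1.04 ± 0.35 (adjusted p = 0.122), and it was called there without date 2 (1.39, adjusted p = 0.0486). The growth factor gene Clec11a fell in knockout cells by 1.64 ± 0.28 (adjusted p = 0.00777). Its change in control cells was -1.04 ± 0.28 (adjusted p = 0.0640), which passed the threshold without date 2 (-1.21, adjusted p = 0.0257). Mgl2, the genomic neighbour of Clec10a, fell in knockout cells by 1.69 ± 0.41 (adjusted p = 0.0327), to 106 with treatment against 323 without, and its change in control cells was -0.67 ± 0.41 (adjusted p = 0.400). The proteoglycan gene Vcan rose in control cells by 2.51 ± 0.55 (adjusted p = 0.0307), a call lost without date 2 (2.10, adjusted p = 0.101), and its change in knockout cells was 0.59 ± 0.55 (adjusted p = 0.557).

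Markers of mature myeloid cells moved in part with the members. Of 12 tested monocyte and macrophage markers, 3 rose and 1 fell in knockout cells and 2 rose and 1 fell in control cells. Over all genes 5.79% were called higher and 3.44% lower in knockout cells, and 3.33% higher and 1.81% lower in control cells. These shares also stand beside the other marker counts below. Cd14 rose by 3.47 ± 0.46 in knockout and 2.63 ± 0.46 in control cells, and F13a1 fell by 1.496 ± 0.25 in knockout and 1.38 ± 0.25 in control cells. Cx3cr1 (2.22 ± 0.34) and Lyz2 (1.54 ± 0.33) also rose in knockout cells, with values in control cells of -0.09 ± 0.34 for Cx3cr1 and 0.14 ± 0.33 for Lyz2, and Vcan rose in control cells. Summed over the 17 measured, of which 4 lay below 70.5 on every array, the signal was 43135 to 56442 in knockout treated against 27588 to 42838 in knockout untreated cells. It was 30807, 54849 and 38551 on the 3 dates in control treated against 25456, 46794 and 35327 in control untreated cells. The sum was thus higher with treatment on each date in both genotypes. A sum follows its brightest genes, so this does not show that the markers rose as a set. Mean Cd14 signal was 8526 in knockout treated against 716 in knockout untreated cells, and 5968.5 in control treated against 886 in control untreated cells. Mean Lyz2 signal was 9721 in knockout treated against 3335 in knockout untreated cells, while F13a1 fell in both genotypes. Of 10 neutrophil markers none was called with treatment in either genotype, and their sums overlapped, at 12960 to 50329 in knockout treated, 8587 to 32384 in knockout untreated, 12854 to 28134 in control treated and 7591 to 74749 in control untreated cells. Of 8 tested dendritic cell markers 1 rose in knockout cells (Cd74, a call lost without date 2 at an adjusted p of 0.108) and 2 in control cells (Cd74 and Batf3). Batf3 was also called in knockout cells without date 2 (1.62, adjusted p = 0.012). Of the 12 dendritic cell markers measured, 2 stayed below 70.5 on every array. Their sums were 1309 to 3239 in knockout treated against 1484 to 2588 in knockout untreated cells, and 1966 to 3018 in control treated against 1417 to 2323 in control untreated cells. Of 11 progenitor markers 0 were called in knockout cells and 1 fell in control cells (Irf8, by 1.39 ± 0.32, lost without date 2 at an adjusted p of 0.109). Their sums were 83795 to 140638 in knockout treated against 98646 to 217164 in knockout untreated cells, and 83272 to 238332 in control treated against 104814 to 213011 in control untreated cells. In knockout cells the progenitor sum was lower with treatment on each date, and in control cells on each date but date 2. No erythroid, megakaryocyte, mast cell and basophil, eosinophil, B lineage, T and NK lineage, or stroma and endothelium marker was called. The summed signal of the 4 measured eosinophil markers, of which 1 lay below 70.5 on every array, was lower with treatment on each date, at 908, 374 and 1483 in knockout treated against 1335, 770 and 2897 in knockout untreated cells. It was 477.5, 434 and 1171 in control treated against 1002, 786 and 2361 in control untreated cells. That of 4 B lineage markers was lower on each date in control cells, at 379, 317 and 390 in control treated against 499, 747 and 624 in control untreated cells. In knockout cells it was 684, 625.7 and 332.5 with treatment against 643, 1049 and 613 without. The mast cell and basophil sum was lower on each date in knockout cells, at 7329, 3922.5 and 4877 with treatment against 8032, 5115 and 7707 without. In control cells it was 8506, 6970 and 4595 with treatment against 7277, 10104 and 6560 without. The stroma and endothelium sum was also lower with treatment on each date in knockout cells, but not in control cells. The part of these markers in the changes of the lectin receptor genes was not tested.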

How the data were processed

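Messenger RNA was measured on 12 single-colour Affymetrix arrays. The authors deposited a linear intensity for 45101 probe sets. The submitters' processing notes name MAS5, whose version and scaling target are not given in the sources used here. With 2% trimmed from both ends, array means were 500.003 to 500.004, so a common scaling had been applied, under which a broad rise lowers other genes. Dim values are noisy after the mismatch subtraction of MAS5. Precision is limited by the number of arrays.

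Probe sets were named from the platform annotation, and 932 with several symbols, 9160 with none and 64 controls were left out. The gene identifiers of all 11 member probe sets were found in the RefSeq table. The constant 13 is the 20th percentile of all values. All 12 arrays were fitted together with limma 3.58.1 (R 4.3.3), 4 group terms and array date as a block (6 residual and 4.21 prior degrees of freedom). For each of 5 comparisons the Benjamini-Hochberg adjustment ran over all probe sets tested. The fit was tested on simulated data. The titles give the dates, and deviations from group means correlated at 0.367 to 0.750 for 18 pairs of arrays of 1 date and at -0.680 to 0.435 for 36 pairs of other dates and groups. Where several probe sets of a gene were tested, the brightest without shared probes stood for it. From each list at most 4 genes per comparison, those with the lowest adjusted p under 0.05, and for each member the 3 genes most like it, were named. The members, lists and tests were chosen with earlier results of these data known. Alternatives were another constant (1 or 50), no or a stricter filter (6 arrays), quantile normalization, median centring, 1 probe set per gene, no date block, only the groups compared, no date 2, and each array left out. Figures were drawn with matplotlib 3.10.9.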

Additional observations from a re-analysis of the deposited data

How the results depend on the processing

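The rises of Clec4d and of the brighter Clec4e probe set kept their direction and their call under all alternatives run, except that Clec4e had an adjusted p of 0.0593 when the control arrays were fitted alone. The 5 member probe sets called with treatment in control cells became 2 with no replicate block for the date and 1 with only the groups compared, and 2 to 5 without 1 array. They became 6 with a constant of 50, where Clec7a was also called. With the stricter filter the count stayed at 5, with Clec7a called and 1425951_a_at of Clec4n not tested. The 6 called in knockout cells became 2 with no replicate block, 4 with no filter, 4 with only the groups compared, 5 with the stricter filter, and 3 to 6 without 1 array. Without the block the second Clec4e and both Clec4n probe sets lost their call in either genotype, and Clec10a in knockout cells. For all probe sets tested, 1849 were called in knockout cells, 343 to 2262 under the alternatives (343 with no replicate block, 1045 with no filter, 949 with only the groups compared) and 572 to 2550 without 1 array. In control cells 1004 were called, and 172 to 1418 under the alternatives (172, 548 and 215 in the same order) and 264 to 1219 without 1 array. Between responses 0 were called, and at most 2 under any alternative. Between genotypes 13 were called with treatment (0 to 28) and 2 without (0 to 2). Median centring moved the median change of all probe sets to -0.105 in knockout and -0.135 in control cells. No called member value changed sign in any fit, and values that were not called did so 44 times. Without treatment, knockout minus control for Clec4d was 0.0218 with median centring and 0.021 without date 2, and -0.272 to 0.0445 without 1 array. For Clec5a it was 0.0784, 0.0659 and -0.285 to 0.327 in the same order. For Clec4a2 it was 0.0033 without date 2 and -0.445 to 0.0723 without 1 array, and for the dim Clec4n probe set (1425951_a_at) -0.219 without date 2. Without 1 array it was -0.636 to 0.138 for Clec4e (1420330_at), -0.102 to 1.231 for Clec4n (1419627_s_at) and -0.252 to 0.192 for Clec7a. With treatment it was -0.361 without date 2 and -0.391 to 0.969 without 1 array for Clec4n (1419627_s_at). For the dim set it was 0.0318 with a constant of 50, 0.0801 with median centring and -0.349 to 0.447 without 1 array, and for Clec5a -0.482 to 0.937. The difference between responses was 0.0211 for the dim Clec4n set without date 2, and without 1 array -1.099 to 0.459 for the other and -0.470 to 0.948 for Clec5a. The treatment change in knockout cells was -0.287 to 0.157 for Clec7a and -0.581 to 0.0988 for Mrc1 without 1 array. In control cells it was 0.0519 for Clec10a without date 2 and -0.297 to 0.112 without 1 array. The cause of these changes was not tested. Dim signals limit Clec4n and Mrc1 most.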

Other observations

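Other pattern recognition and phagocytic receptor genes were called in part. Of 23 tested genes on a list of 30, 3 rose and 1 fell in knockout cells, beside 5.79% of all genes called higher and 3.44% lower. In control cells 2 rose and 0 fell, beside 3.33% called higher and 1.81% lower. The median log2 change was 1.02 in knockout cells, beside -0.02 over all genes, and 0.23 in control cells, beside -0.04. The inflammasome sensor gene Nlrp3 rose by 1.84 ± 0.27 in knockout cells (SE, limma adjusted p = 0.00420) and by 1.56 ± 0.27 in control cells (adjusted p = 0.0118). The complement receptor gene C3ar1 rose by 2.94 ± 0.69 in knockout cells (adjusted p = 0.0278) and by 3.93 ± 0.69 in control cells (adjusted p = 0.0125). The inhibitory receptor gene Pirb rose in knockout cells by 3.30 ± 0.45 (adjusted p = 0.00281), to a mean signal of 316 with treatment against 24.7 without. Its change in control cells was 1.54 ± 0.45 (adjusted p = 0.0820), and it was called there without date 2 (2.18, adjusted p = 0.0164). Trem3 fell in knockout cells by 1.45 ± 0.36 (adjusted p = 0.0340). Its change in control cells was -1.40 ± 0.36 (adjusted p = 0.0539), which passed the threshold without date 2 (-1.15, adjusted p = 0.0305). None of the 23 was called between the genotypes or for the difference between responses.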
